A study of Homo sapiens with 15 samples.

Results

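HEK293T cells, an established line derived from human embryonic kidney, were compared after 4 h with IXA6 and after 4 h with thapsigargin (Tg). The series describes IXA6 as an activator of the IRE1/XBP1s pathway, and Tg provokes general stress of the endoplasmic reticulum (ER). The comparison used the 3 IXA6 libraries and the 3 Tg libraries, 6 of the 15 samples, chosen by their titles, and covered all 13243 genes of the count table. It asked which genes came near their Tg level with IXA6 and which were changed by Tg while IXA6 left them near the vehicle level. The 3 libraries of cells given the vehicle DMSO for 4 h served as the base line for both compounds. The series also holds IXA1 and IXA4, whose libraries entered the statistical fit but are not described. The groups shared the cell line, the medium and the treatment time, and no genetic change beyond the line itself is named in the labels. No dose of either compound is stated, so IXA6 and Tg were compared at a matched time and unknown doses. The samples came from 3 independent experiments per the labels. The labels do not say that a replicate number marks an experiment shared by the groups, so no block was used. The p-values measure the spread between cultures within groups, shared over all groups of the fit.

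The unfolded protein response is the set of pathways by which cells answer misfolded protein in the ER. IRE1, encoded by ERN1, splices the mRNA of XBP1 and thereby produces the transcription factor XBP1s, which raises genes of ER protein import, folding, glycosylation, transport and degradation. ATF6 is cut in the Golgi to release a transcription factor that raises ER chaperones. PERK, encoded by EIF2AK3, phosphorylates eIF2alpha and so favours translation of ATF4. ATF4 raises genes of amino acid supply and of stress-induced death and belongs to the integrated stress response (ISR). Tg blocks the calcium pump of the ER and activates all 3 branches, whereas the IXA compounds are described as acting through IRE1.

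Total counts were 15025135 to 15509818 per library with IXA6, 14160321 to 15453994 with Tg and 15123547 to 15331691 with DMSO, and the biological coefficient of variation was 5.66%. Levels below are CPM, the reads of a gene in each 1000000 reads after scaling by library size and normalization factor, and they do not correct for gene length, so they are not compared between genes. Of the 9 HEK293 line markers listed, 8 were measured, among them VIM at 356 ± 15.4 CPM with IXA6, 351 ± 10.7 CPM with Tg and 396 ± 10.9 CPM with DMSO (SD, n = 3 each), and PAX2 was near 1 CPM. Against Tg, 3 of the 8 were lower with IXA6, where 16.8% of all genes were, KRT18 (-0.48, overlapping KRT8), CDH2 (-0.29) and NEFM (-0.26). Of 16 markers of blood, endothelium, fibroblasts, liver, adult kidney, glia, islets and epithelia 6 were measured. The summed level of these 6 was 20.3 to 24.2 CPM with IXA6, 20.4 to 24.0 CPM with Tg and 23.5 to 25.4 CPM with DMSO. In bulk RNA, a change in the number of cells of a kind and a change in RNA per cell cannot be told apart.

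IXA6 and Tg differed in the expression of 4108 of the 13243 genes, 1886 higher and 2222 lower with IXA6 (edgeR quasi-likelihood test, Benjamini-Hochberg adjusted p under 0.05). With scaling by total counts in place of TMM, 2988 were higher and 1499 lower, so which side held more genes depended on the scaling. The main counts are 31% of genes tested, 14.2% higher and 16.8% lower, and the median log2 fold change of all genes was 0.0011. At least a 2-fold difference was found for 78 genes higher and 155 lower with IXA6. Among genes with a mean of at least 2 CPM and no overlap between the IXA6 and Tg libraries, the largest falls with IXA6 against Tg were in CHAC1, an enzyme that degrades glutathione (-4.55 ± 0.11 on the log2 scale). Next came the peptide hormone gene ADM2 (-4.08 ± 0.25), LBH (-4.02 ± 0.14) and DDIT3, which encodes the stress transcription factor CHOP (-3.81 ± 0.09; ± values are standard errors). These were followed by OSTN, which encodes a secreted peptide (-3.61), HERPUD1 of ER-associated degradation (-3.20), the glycine transporter gene SLC6A9 (-2.82) and HSPA5, which encodes the ER chaperone BiP (-2.62). The adjusted p of these 8 genes was at most 5.40e-12. DDIT3 and SLC6A9 overlap the measured genes MARS and CCDC24, so part of their reads could belong to those neighbours, since how counting used strand is not stated.

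The largest rises with IXA6 against Tg, by the same rule, were in 8 genes that Tg lowered from the DMSO level. DGAT2, an enzyme of triacylglycerol synthesis, had 3.51, 3.69 and 4.26 CPM with IXA6 and 1.16, 0.801 and 0.407 CPM with Tg, against 8.83, 10.2 and 9.88 CPM with DMSO. The 3 groups did not overlap, and the IXA6 libraries stood between the others (2.27 ± 0.25 SE, adjusted p = 1.64e-07 against Tg and -1.33 ± 0.17 SE, adjusted p = 2.45e-05 against DMSO). The cytosolic HSP70 genes HSPA1B (2.003 ± 0.08), HSPA1A (1.94 ± 0.08), HSPA1L (1.91 ± 0.23) and HSPA2 (1.71 ± 0.16) were also higher with IXA6 than with Tg. So were the adhesion gene BCAM (1.86 ± 0.15), the collagen gene COL26A1 (1.81 ± 0.26) and the interferon-induced gene IFIT1 (1.80 ± 0.20), which overlaps LIPA. The adjusted p of these 8 genes was at most 8.15e-06. COL26A1 had only 0.955, 0.874 and 0.882 CPM with Tg, so its difference rests on low counts. The difference of DGAT2 from Tg also rests on low counts with Tg, and ran from 1.95 to 2.66 with 1 library left out.

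**Figure D1:**
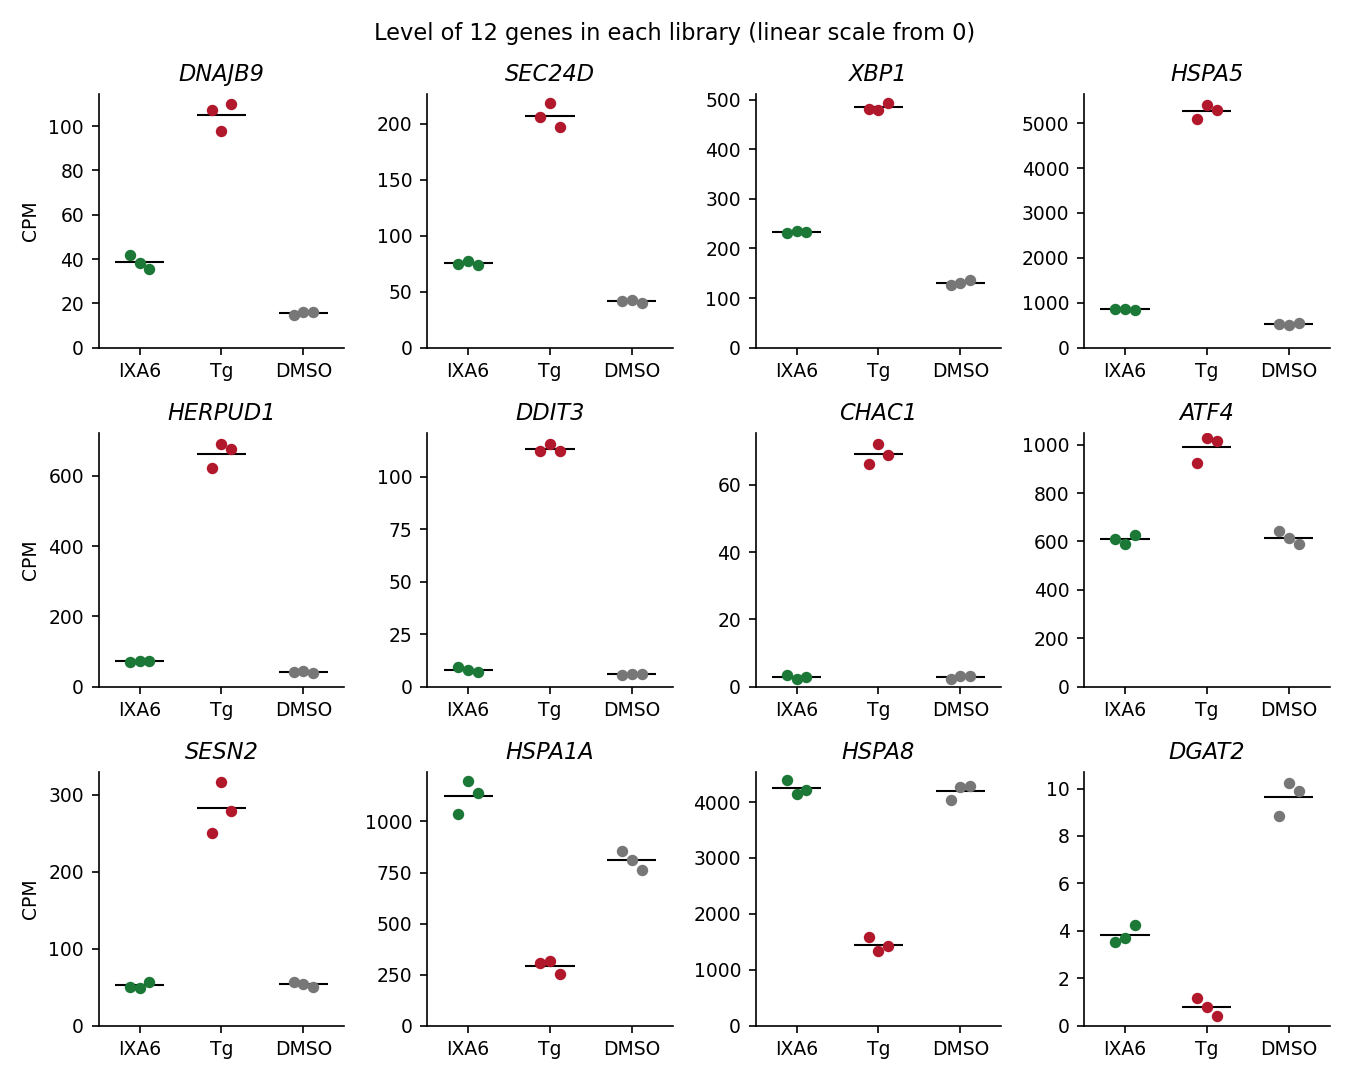
CPM of 12 genes in each library with IXA6, Tg and DMSO, on linear axes that start at 0; points are libraries and lines are group means (n = 3). IXA6 libraries stood between DMSO and Tg for DNAJB9, SEC24D, XBP1, HSPA5 and HERPUD1, near DMSO for ATF4, SESN2 and HSPA8, and above both for HSPA1A.

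Genes that Tg changed were placed by where IXA6 stood between vehicle and Tg. Against DMSO, Tg changed 4746 genes (35.8% of those tested), of which 958 changed at least 1.5-fold, 574 raised and 384 lowered. With scaling by total counts, Tg raised 1749 genes and lowered 3390 at any fold, against 2493 and 2253 with TMM. A gene was called near Tg when the 95% interval of its IXA6-to-Tg difference lay within 25% either way (a ratio of 5 to 4 or 4 to 5). It was called near DMSO when it differed from Tg and the interval of its IXA6-to-DMSO difference lay within the same margin. It was called between when IXA6 differed from both groups in the direction of Tg. Of the 958 genes, 810 (84.6%) differed between IXA6 and Tg. By these rules, read from intervals of the edgeR fit, 120 were between, 272 were near DMSO, 5 moved with IXA6 in the direction opposite to Tg, 561 were unresolved and 0 were near Tg. Without DMSO replicate 2, 78 were between. When 1 library was left out, at most 1 gene came near Tg, KCNK1 without IXA6 replicate 3, HMX1 without IXA6 replicate 2 and SCHIP1 without Tg replicate 3. IXA6 went further than Tg in 0 of the 958, also at an unadjusted p under 0.05 and by DESeq2. The 958 were chosen for large Tg changes, which tilts the set against an IXA6 change beyond Tg. For 608 of the 958 the interval was narrow enough to fall within the margin, and for 53 the estimate lay within that margin of the Tg level, of which 46 were not called different from Tg. Of the 561 unresolved genes, 413 differed from Tg while their distance from DMSO was not settled. The other 148 were not told apart from Tg, and 8 of them, 5 raised and 3 lowered by Tg, differed from DMSO with IXA6.

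**Figure D2:**
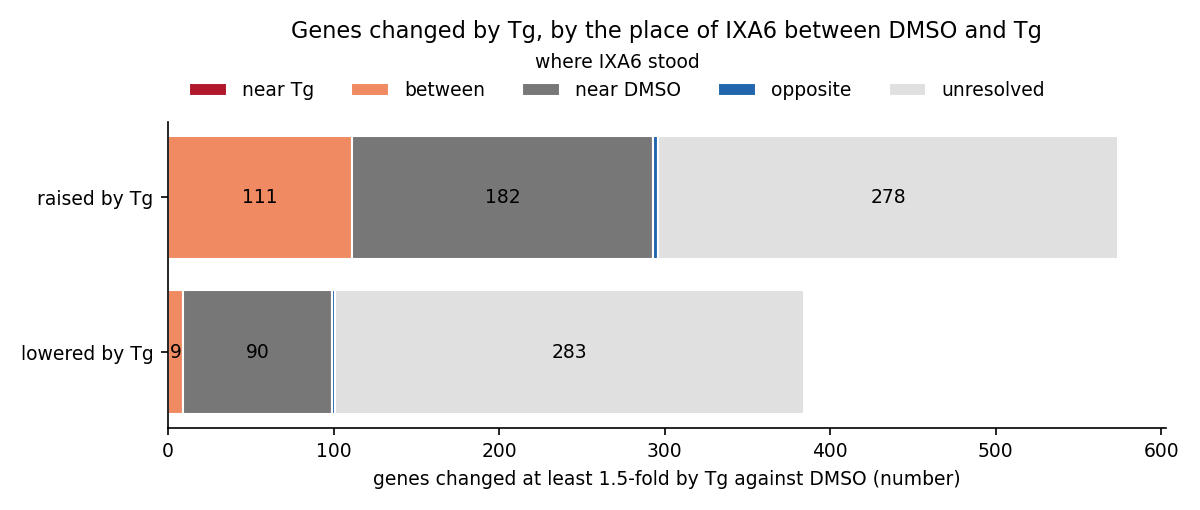
Number of genes raised or lowered at least 1.5-fold by Tg, split by where IXA6 stood. Of 574 raised genes 111 were between and 182 near DMSO, of 384 lowered genes 9 were between and 90 near DMSO, and 0 genes of either direction were near Tg. The narrow opposite segments hold 3 raised and 2 lowered genes.

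Raised and lowered genes are counted apart here. Among the 574 raised by Tg, 111 (19.3%) were between and 182 (31.7%) near DMSO, and among the 384 lowered, 9 (2.34%) were between and 90 (23.4%) near DMSO. The unresolved were 278 (48.4%) of the raised and 283 (73.7%) of the lowered genes. With scaling by total counts, 99 raised and 11 lowered genes were between, 132 raised and 144 lowered ones near DMSO, and 223 raised and 378 lowered ones unresolved. The log2 change with IXA6, given as a percent of the log2 change with Tg, had a median of 19.9% over the 574 raised genes and 13.9% over the 384 lowered ones. Both changes were measured from the same DMSO libraries, so this percent is a description. Within the 111 raised genes in between, it ran from 10.9% to 70.3% with a median of 34.8%, and 12 of them were at 50% or more.

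The genes that came nearest to Tg with IXA6, among those raised by both compounds, were led by KCNK1, which encodes a potassium channel subunit. KCNK1 had 9.93, 8.46 and 8.27 CPM with IXA6 and 9.08, 9.03 and 9.98 CPM with Tg, against 5.69, 6.21 and 6.39 CPM with DMSO. The IXA6 and Tg libraries overlapped and both stood above the DMSO libraries, with an IXA6 change of 87.6% of the Tg change. IXA6 and Tg were not told apart (-0.08 ± 0.12 SE, adjusted p = 0.684), but the 95% interval of -0.33 to 0.18 just left the margin, and with a 90% interval KCNK1 was the 1 gene near Tg. The rise of KCNK1 against DMSO was modest (0.54 ± 0.13 SE, adjusted p = 0.0263) and no longer passed without IXA6 replicate 1 or 2 or without any DMSO library (adjusted p 0.0594 to 0.157). BEX5, a brain-expressed X-linked family gene, stood at 65.4% of the Tg change, with 11.1, 8.91 and 10.6 CPM with IXA6 and 12.2, 11.4 and 13.4 CPM with Tg, against 6.59, 7.90 and 6.72 CPM with DMSO. Its IXA6 libraries lay just below those with Tg and above those with DMSO. Its call against DMSO was lost without IXA6 replicate 1 or 3 or without DMSO replicate 1 or 3 (adjusted p 0.0555 to 0.122). Without IXA6 replicate 1 or Tg replicate 2 it differed from Tg (adjusted p 0.0466 and 0.0448). PGM3 of the hexosamine pathway stood at 64.9%. It overlaps DOPEY1 and RWDD2A, and its IXA6 libraries ranged from 85.6 to 130.4 CPM, with the lowest inside the DMSO range. Its call against DMSO was lost without IXA6 replicate 1 or 2, without DMSO replicate 1 or 3 and with DESeq2 (adjusted p 0.0683 to 0.165). Without IXA6 replicate 1 or Tg replicate 2 it differed from Tg (adjusted p 0.0252 and 0.0263).

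Other genes, of which HBP1 is the less firmly measured, came to about 60% to 70% of the Tg change on the log2 scale. COG3, a subunit of the Golgi tethering complex, had 54.4, 53.8 and 53.9 CPM with IXA6 and 71.4, 62.3 and 61.1 CPM with Tg, against 37.2, 33.3 and 34.4 CPM with DMSO. All 3 groups were apart, with the IXA6 level at 70.3% of the Tg change (-0.27 ± 0.07 SE, adjusted p = 0.00362 against Tg, 0.63 ± 0.07 SE, adjusted p = 4.50e-06 against DMSO). SLC33A1, the acetyl-CoA transporter of the ER membrane, had 94.5, 98.4 and 98.9 CPM with IXA6 and 134, 137 and 139.95 CPM with Tg, against 58.7, 57.3 and 58.0 CPM with DMSO, again with 3 groups apart and 60.3% of the Tg change. Its difference from Tg was -0.49 ± 0.05 SE, adjusted p = 2.01e-07. ALG2, a mannosyltransferase of N-glycan assembly, stood at 62.7% (-0.34 ± 0.07 SE, adjusted p = 0.000534 against Tg). ARMCX3, a protein of the mitochondrial outer membrane, stood at 60.3% (-0.35 ± 0.07 SE, adjusted p = 0.000283), and the repressor gene HBP1 at 61.2%. HBP1 overlaps COG5. Its difference from Tg (-0.24 ± 0.07 SE, adjusted p = 0.0164) was lost without IXA6 replicate 2 or 3, without Tg replicate 3 and with scaling by total counts (adjusted p 0.0791 to 0.0878). Its call against DMSO was lost without IXA6 replicate 1 (adjusted p = 0.0930). CREB3L2, an ER-anchored transcription factor named after its values were seen, had 263, 283 and 282 CPM with IXA6 and 413, 414 and 411 CPM with Tg, against 157, 158 and 151 CPM with DMSO, which is 59.0% of the Tg change.

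Among genes lowered by both compounds, the homeobox gene HMX1 stood at 77.1% of the Tg change, with 8.67, 11.8 and 10.8 CPM with IXA6 and 10.2, 9.76 and 8.35 CPM with Tg, against 13.9, 15.4 and 14.4 CPM with DMSO. Its IXA6 and Tg libraries overlapped below the DMSO range (0.14 ± 0.12 SE, adjusted p = 0.395 against Tg). Its fall against DMSO was lost without IXA6 replicate 1, DMSO replicate 2 or DMSO replicate 3 (adjusted p 0.0688 to 0.157). The scavenger receptor gene SCARF2 stood at 69.1%, and its difference from Tg (0.21 ± 0.09 SE, adjusted p = 0.0917) passed without Tg replicate 2 (adjusted p = 0.0306) and with scaling by total counts (adjusted p = 0.0256). PIGQ of glycosylphosphatidylinositol anchor synthesis stood at 47.0%, with all 3 groups apart (0.44 ± 0.07 SE, adjusted p = 7.36e-05 against Tg). The actin-bundling gene FSCN1 stood at 54.8%. Its difference from Tg (0.27) was lost without IXA6 replicate 2 or 3 or Tg replicate 1 (adjusted p 0.0538 to 0.0756). That from DMSO was lost without IXA6 replicate 1 or 2 or DMSO replicate 2 or 3 (adjusted p 0.0675 to 0.183). TMEM200B, which overlaps EPB41, topped this list by its percent. Its call rested on DMSO replicate 1, at 30.5 CPM against 2.46 and 2.57 CPM in the other DMSO libraries. Without that library its log2 change with IXA6 was 0.0235 (adjusted p = 0.974). Its call was also lost without any IXA6 library, without Tg replicate 3, with scaling by total counts and in the fit of the 9 libraries (adjusted p 0.0555 to 0.161).

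**Figure D3:**
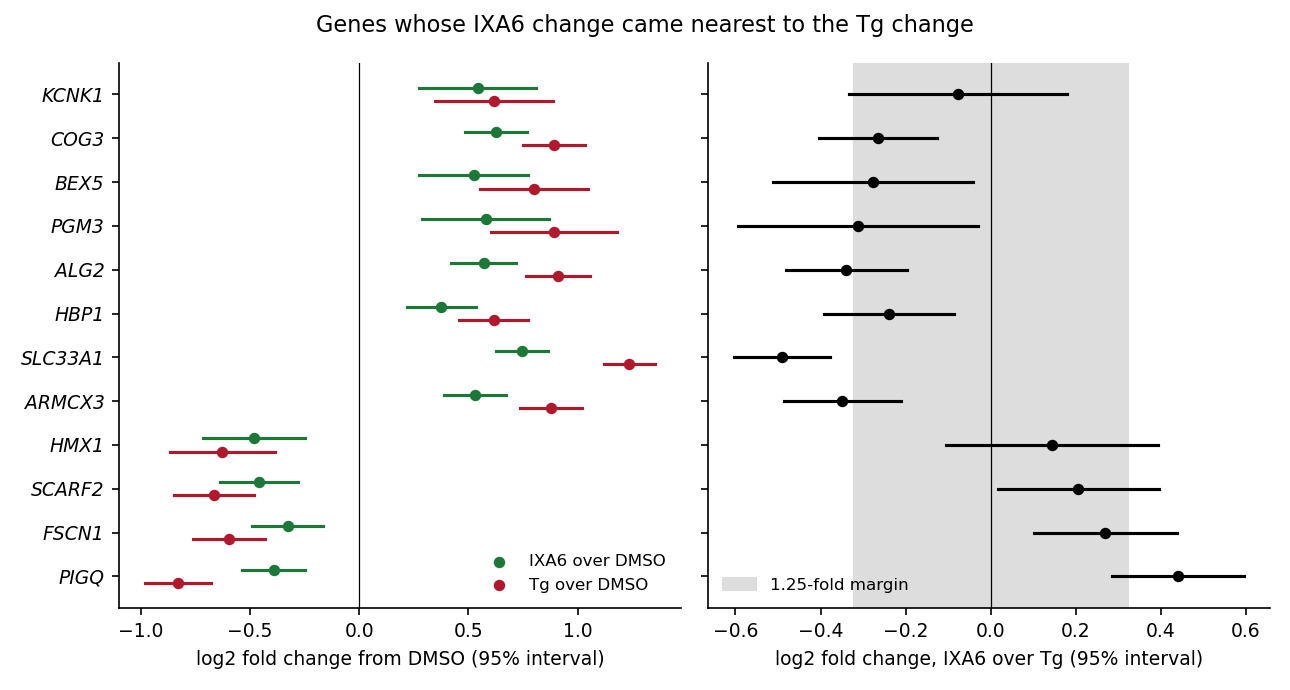
Left, log2 fold change from DMSO with IXA6 and with Tg; right, log2 fold change of IXA6 over Tg with the 25% margin shaded; bars are 95% intervals from the edgeR fit. The intervals of the 12 genes each extended beyond the margin, and KCNK1 lay closest to 0. TMEM200B, which topped the lowered genes by its percent, is not shown.

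XBP1 and the sensor genes themselves were raised by IXA6 to part of the Tg level or left near DMSO. XBP1 had 230.4, 235 and 233 CPM with IXA6 and 481, 479.6 and 494 CPM with Tg, against 126, 129.8 and 137 CPM with DMSO. The 3 groups were apart by wide gaps, with IXA6 2.08-fold below Tg (-1.06 ± 0.05 SE, adjusted p = 8.62e-15) and at 44.0% of the Tg change. The counts sum both splice forms of XBP1, so splicing itself was not measured. The PERK gene EIF2AK3 stood at 34.8% of the Tg change, with 40.3, 45.2 and 43.0 CPM with IXA6 and 98.3, 95.5 and 99.2 CPM with Tg, against 26.4, 28.2 and 28.1 CPM with DMSO, also with the groups apart. The IRE1 gene ERN1 and ATF6 were raised by Tg and not told apart from DMSO with IXA6 (0.00 ± 0.10 SE, adjusted p = 0.996 and -0.03 ± 0.05 SE, adjusted p = 0.828). IXA6 lay below Tg for both (-0.49 ± 0.09 SE, adjusted p = 0.00023 and -0.62 ± 0.05 SE, adjusted p = 2.51e-09). The list of sensors and their processing genes had 8 of 13 members lower (16.8% of all genes were) with IXA6 than with Tg and a median log2 difference of -0.34, against 0.0011 over all genes.

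Most targets of XBP1s were raised by IXA6, and most stayed below their Tg level. Of 40 members, 28 were higher with IXA6 than with DMSO, against 1.51% of all genes, and 19 to 29 were so when each of the 9 libraries was left out in turn. Against Tg, 35 of 40 were lower with IXA6, against 16.8% of all genes, and 1, the ER-Golgi gene ERGIC2, was higher (0.20 ± 0.06 SE, adjusted p = 0.0199), a call lost without IXA6 replicate 2 or Tg replicate 2 (adjusted p 0.0587 and 0.108). The median log2 difference from Tg was -0.55. Of the 28 members that Tg raised at least 1.5-fold, 23 were between and 2 near DMSO, and the median IXA6 change was 36.4% of the Tg change. DNAJB9, an ER co-chaperone, had 41.9, 38.2 and 35.6 CPM with IXA6 and 107, 98.0 and 109.95 CPM with Tg, against 14.7, 16.2 and 16.3 CPM with DMSO. IXA6 libraries lay clear of both other groups, at 47.2% of the Tg change (-1.44 ± 0.07 SE, adjusted p = 1.69e-14 against Tg). SEC24D of the COPII coat had 74.9, 77.2 and 73.8 CPM with IXA6 and 206, 218 and 198 CPM with Tg, against 41.9, 42.7 and 40.1 CPM with DMSO, with the groups equally apart and 37.0% of the Tg change (-1.46 ± 0.06 SE, adjusted p = 4.51e-16 against Tg). DNAJC3, a co-chaperone of BiP, stood at 22.9% (-1.52 against Tg). FICD, whose product AMPylates BiP, stood at 34.1% (-1.61 against Tg), although the call of FICD against DMSO was lost without DMSO replicate 3 (adjusted p = 0.0630).

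ATF6 targets, mostly ER chaperones and components of ER-associated degradation, were all raised by Tg, where 18.8% of all genes were, and all 16 were lower with IXA6 than with Tg, where 16.8% of all genes were, at a median of -1.76. IXA6 raised 13 of the 16 above DMSO, against 1.51% of all genes. Of the 16, 13 were in between, and the median IXA6 change was 19.6% of the Tg change. HSPA5 had 862, 865 and 839.8 CPM with IXA6 and 5099, 5415 and 5296 CPM with Tg, against 529, 504 and 539 CPM with DMSO. Every IXA6 library stood above every DMSO library, yet IXA6 lay 6.16-fold below Tg (-2.62 ± 0.05 SE, adjusted p = 5.54e-22), at 21.2% of the Tg change. HERPUD1 had 70.7, 72.0 and 73.2 CPM with IXA6 and 623, 691 and 676 CPM with Tg, against 43.0, 43.4 and 39.3 CPM with DMSO, likewise in 3 separate groups, 9.21-fold below Tg and at 19.6%. HYOU1, an ER chaperone of the HSP110 family, stood at 15.3% of the Tg change (-2.08 ± 0.05 against Tg) and the co-chaperone SDF2L1 at 14.2% (-2.13 ± 0.07), whose call against DMSO was lost without IXA6 replicate 2 or DMSO replicate 1 or 2 (adjusted p 0.0527 to 0.112). The Derlin gene DERL3, which overlaps SMARCB1, differed from Tg by -2.15 ± 0.09 and was not told apart from DMSO (0.32 ± 0.10 SE, adjusted p = 0.112). The smallest log2 differences from Tg were those of the lectin chaperone genes CANX (32.2% of the Tg change, -0.63 ± 0.05 against Tg) and CALR (19.6%, -1.03 ± 0.05), while XBP1, also in this list, had the highest percent. Members such as HSPA5, HERPUD1 and HYOU1 also stand in the lists of ER folding or degradation, so the counts of these lists are not independent.

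Targets of PERK and the ISR rose with Tg, and few of them differed from DMSO with IXA6. Of 31 measured members of 32, 30 were lower with IXA6 than with Tg and 1 higher, with a median of -1.72, against 16.8% and 14.2% of all genes. Against DMSO 3 were higher and 1 lower, where 1.51% and 0.778% of all genes were, and these 4 calls were 2 without IXA6 replicate 1 or 2 or any DMSO library. Of the 28 raised at least 1.5-fold by Tg the median IXA6 change was 0.873% of the Tg change, and among the 29 changed 16 were near DMSO, 3 between, 1 opposite and 9 unresolved. ATF4, the transcription factor of the pathway, had 611, 588 and 628 CPM with IXA6 and 923, 1028 and 1015 CPM with Tg, against 643, 615 and 588 CPM with DMSO. IXA6 and DMSO libraries overlapped and both lay below Tg (-0.70 ± 0.05 SE, adjusted p = 3.37e-10 against Tg). ATF3, a stress-induced transcription factor, had 32.7, 33.0 and 32.9 CPM with IXA6 and 165, 166 and 171 CPM with Tg, against 33.0, 29.4 and 30.4 CPM with DMSO. SESN2, a sestrin that restrains mTORC1, had 50.3, 49.3 and 57.0 CPM with IXA6 and 251, 317 and 279 CPM with Tg, against 56.4, 53.5 and 50.7 CPM with DMSO. Both were near DMSO with IXA6, 5.08-fold and 5.40-fold below Tg (-2.35 ± 0.07 SE, adjusted p = 1.69e-18 and -2.43 ± 0.08 SE, adjusted p = 2.05e-17). CHAC1 had 3.51, 2.35 and 2.99 CPM with IXA6 and 66.3, 72.1 and 69.0 CPM with Tg, against 2.37, 3.24 and 3.29 CPM with DMSO, with IXA6 and DMSO libraries in the same range. Its interval against DMSO, -0.36 to 0.34, was too wide for the margin at these low counts, so it was unresolved although it differed from Tg by -4.55 ± 0.11 (adjusted p = 7.45e-20). The other near DMSO genes with the largest Tg rises were TSC22D3, a glucocorticoid-induced leucine zipper gene (-2.60 against Tg), the secreted glycoprotein gene STC2 (-2.46), CTH of cysteine synthesis (-2.56) and the pseudokinase gene TRIB3 (-2.50).

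The exceptions in the PERK and ISR list were few and named after their values were seen where the naming rule did not cover them. DDIT3 had 9.34, 7.83 and 7.12 CPM with IXA6 and 112, 116 and 112 CPM with Tg, against 5.76, 5.89 and 5.93 CPM with DMSO. IXA6 libraries stood just above the DMSO libraries and far below Tg, at 10.9% of the Tg change (0.46 ± 0.12 SE, adjusted p = 0.0353 against DMSO). That call was lost without IXA6 replicate 1 or 2 or without any DMSO library (adjusted p 0.0857 to 0.214). The amino acid transporter gene SLC1A4 had 16.8, 18.8 and 17.7 CPM with IXA6 and 59.4, 64.4 and 57.6 CPM with Tg, against 11.3, 10.4 and 11.99 CPM with DMSO, in 3 separate groups at 27.3% of the Tg change. ALDH1L2 of mitochondrial folate metabolism stood at 19.5% (0.28 ± 0.06 SE, adjusted p = 0.00799 against DMSO). SLC7A5, a large neutral amino acid transporter, had 202, 205 and 223 CPM with IXA6 and 469.9, 582 and 526 CPM with Tg, against 245, 254 and 243 CPM with DMSO. IXA6 lay below DMSO and Tg above it (-0.24 ± 0.06 SE, adjusted p = 0.0424 against DMSO). This fall was lost without IXA6 replicate 1 or 2, Tg replicate 3 or any DMSO library (adjusted p 0.0554 to 0.188) and in the fit of the 9 libraries (adjusted p = 0.0846). ATF5, a related factor that overlaps NUP62, was the 1 member lowered by Tg. It was higher with IXA6 than with Tg (0.70 ± 0.09 SE, adjusted p = 2.00e-06) and not told apart from DMSO (-0.15 ± 0.09 SE, adjusted p = 0.377).

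Cytosolic tRNA synthetases, which ATF4 is known to raise, mostly rose with Tg and were not called with IXA6. Tg raised 15 of 20 (18.8% of all genes), and 15 of 20 were lower with IXA6 than with Tg (16.8% of all genes), with a median of -0.46. Against DMSO edgeR called 0 of 20 with IXA6, with 3 lower and 0 higher at an unadjusted p under 0.05, and DESeq2 called 0. GARS had 286, 280.1 and 289 CPM with IXA6 and 546, 583 and 583 CPM with Tg, against 296, 310.5 and 323 CPM with DMSO, with IXA6 libraries just below those with DMSO and Tg clear above (-1.003 ± 0.05 SE, adjusted p = 1.59e-14 against Tg and -0.12 ± 0.05 SE, adjusted p = 0.163 against DMSO). All 6 members raised at least 1.5-fold by Tg were near DMSO, with a median of 2.01% of the Tg change.

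**Figure D4:**
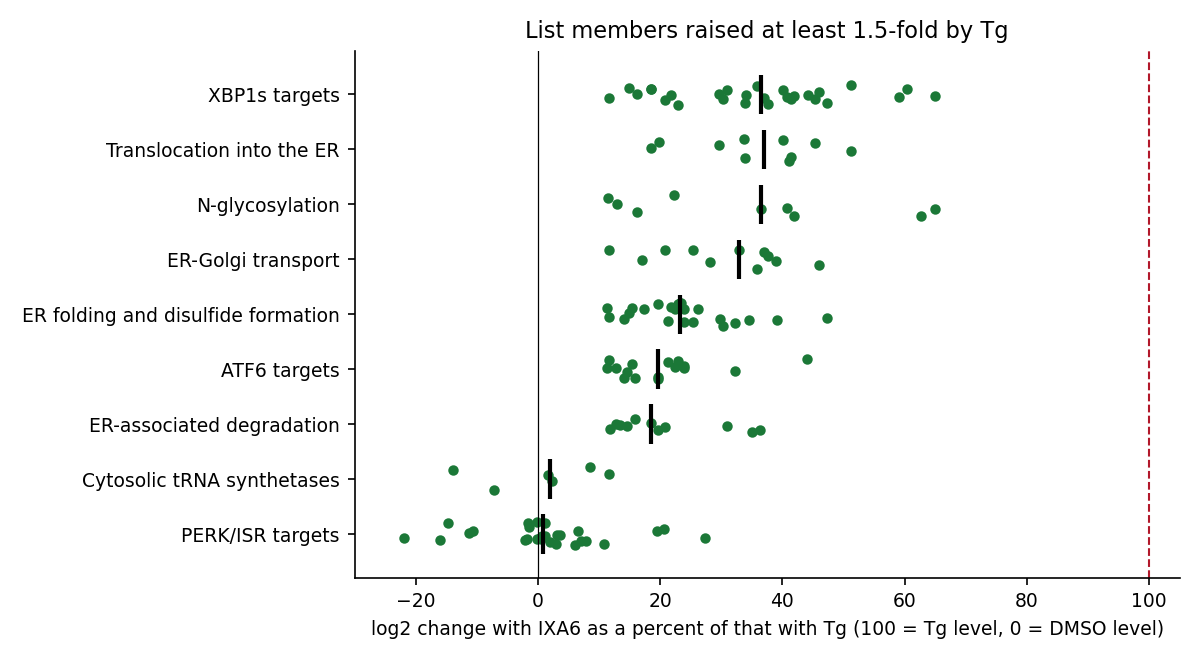
Log2 change with IXA6 as a percent of that with Tg for members of 9 lists that Tg raised at least 1.5-fold; points are genes and lines are medians. Medians were 36.4% for XBP1s targets, 19.6% for ATF6 targets and 0.873% for PERK and ISR targets, and none of the genes shown reached 100%.

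Genes of ER functions were mostly lower with IXA6 than with Tg, and folding genes were the most often raised above DMSO. Over all genes 16.8% were lower and 14.2% higher with IXA6 than with Tg, and 1.51% were above DMSO. In ER folding and disulfide formation, 27 of 28 members were lower with IXA6 than with Tg (median -0.74), 17 were above DMSO, and members raised at least 1.5-fold by Tg had a median of 23.3% of the Tg change. In ER-associated degradation 17 of 23 were lower and 1 higher than with Tg (median -0.49) and the median percent was 18.6%. SEL1L, the partner of the HRD1 ubiquitin ligase, had 125, 129.6 and 118 CPM with IXA6 and 492, 475 and 487 CPM with Tg, against 98.3, 98.8 and 98.1 CPM with DMSO, in 3 groups apart at 14.5% of the Tg change. SYVN1, which encodes HRD1 itself and overlaps MRPL49, differed from Tg by -1.67 ± 0.07 (adjusted p = 2.85e-15). For translocation into the ER, 17 of 25 were lower than with Tg (median -0.32) and the median percent was 37.0%. SSR3, a subunit of the translocon-associated complex, had 398, 389 and 396 CPM with IXA6 and 666, 615 and 640.3 CPM with Tg, against 275, 279 and 301 CPM with DMSO, at 40.2% of the Tg change with the groups apart. SRP19 of the signal recognition particle, which overlaps REEP5, stood at 51.2% (-0.45 ± 0.06 SE, adjusted p = 1.08e-06 against Tg).

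In N-glycosylation 21 of 32 members were lower and 2 higher than with Tg (median -0.26), where 16.8% and 14.2% of all genes were, with a median percent of 36.5%. GFPT1, the entry enzyme of the hexosamine pathway, differed from Tg by -1.31 ± 0.06 and stood at 16.3% of the Tg change. Its call against DMSO was lost without IXA6 replicate 1 or 2 or DMSO replicate 2 or 3 and in the fit of the 9 libraries (adjusted p 0.0504 to 0.150). In ER-Golgi transport 21 of 34 were lower and 4 higher (median -0.34), with a median percent of 32.9%. The members higher than with Tg were no larger a share of these lists than of all genes. ARFGAP3, which acts on the COPI coat, stood at 35.9% (-0.74 ± 0.06 SE, adjusted p = 8.53e-10 against Tg). SEC61B and SEC61G, the small subunits of the translocon, were named after their values were seen. They were not told apart from Tg, at 0.01 ± 0.05 SE, adjusted p = 0.891 for SEC61B and 0.07 ± 0.07 SE, adjusted p = 0.537 for SEC61G. Their changes with Tg itself were small, 0.23 and 0.29 on the log2 scale, and their IXA6 calls against DMSO were lost when a library was left out. For SEC61B this held for IXA6 replicates 2 and 3 and DMSO replicate 1 (adjusted p 0.0520 to 0.113) and in the fit of the 9 libraries (adjusted p = 0.0571). For SEC61G it held for IXA6 replicates 1 and 2 and DMSO replicate 1 (adjusted p 0.0518 to 0.112).

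**Figure D5:**
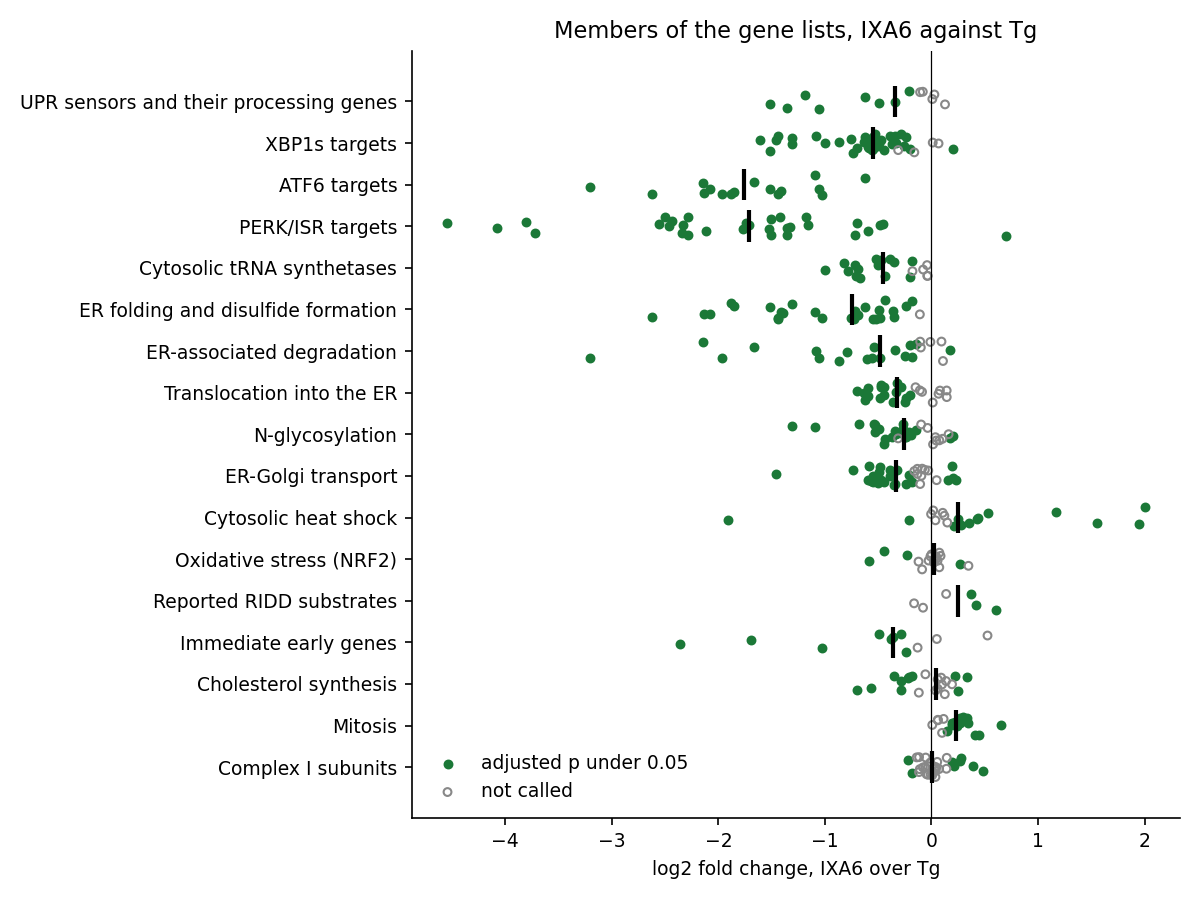
Log2 fold change of IXA6 over Tg for each measured member of 17 lists; filled points passed edgeR at an adjusted p under 0.05 and bars are list medians. The medians were -1.76 for ATF6 targets, -1.72 for PERK and ISR targets, -0.55 for XBP1s targets and 0.25 for heat shock genes.

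Promoters of 4 genes that held a motif match are shown, XBP1, HSPA5 and HERPUD1 raised part of the way by IXA6 and CHAC1 not told apart from DMSO. Other genes that stood apart as clearly held no match and are named below the sequences. The sequences are from RefSeq (GRCh38.p14), 250 bases before to 50 after the start of the gene, 5′ to 3′ on the strand of the gene. Capitals mark matches to the ER stress elements ERSE (CCAAT and CCACG with 9 bases of any kind between them) or ERSE-II (ATTGG and CCACG with 1 base between them) or to the amino acid response motif CARE (TGATGNAAN), searched on both strands.
XBP1, chr22:28800520-28800819 (- strand): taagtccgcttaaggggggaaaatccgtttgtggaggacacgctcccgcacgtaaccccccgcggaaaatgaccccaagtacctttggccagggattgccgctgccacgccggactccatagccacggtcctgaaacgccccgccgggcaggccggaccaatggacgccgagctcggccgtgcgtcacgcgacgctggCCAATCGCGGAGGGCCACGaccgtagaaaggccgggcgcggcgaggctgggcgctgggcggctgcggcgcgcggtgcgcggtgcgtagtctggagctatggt
HSPA5, chr9:125241294-125241593 (- strand): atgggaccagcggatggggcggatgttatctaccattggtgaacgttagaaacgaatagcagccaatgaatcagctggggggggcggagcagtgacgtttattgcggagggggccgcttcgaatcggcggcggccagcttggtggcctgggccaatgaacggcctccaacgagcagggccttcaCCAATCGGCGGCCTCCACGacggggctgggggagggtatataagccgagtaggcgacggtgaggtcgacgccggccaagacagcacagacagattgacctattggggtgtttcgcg
HERPUD1, chr16:56931892-56932191 (+ strand): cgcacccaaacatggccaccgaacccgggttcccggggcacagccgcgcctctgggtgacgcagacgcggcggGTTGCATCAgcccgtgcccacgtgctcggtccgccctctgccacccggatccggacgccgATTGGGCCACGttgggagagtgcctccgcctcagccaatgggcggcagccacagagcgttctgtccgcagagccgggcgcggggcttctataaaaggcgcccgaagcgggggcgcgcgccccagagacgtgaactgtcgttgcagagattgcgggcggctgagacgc
CHAC1, chr15:40953221-40953520 (+ strand): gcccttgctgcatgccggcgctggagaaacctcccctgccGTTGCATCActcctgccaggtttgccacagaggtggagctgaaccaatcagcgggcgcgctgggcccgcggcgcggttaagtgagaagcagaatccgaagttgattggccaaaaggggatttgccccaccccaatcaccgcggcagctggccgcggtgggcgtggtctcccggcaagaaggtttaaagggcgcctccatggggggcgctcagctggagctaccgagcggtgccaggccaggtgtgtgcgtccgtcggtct
ERSE matched in XBP1 from -52 to -34 and in HSPA5 from -66 to -48 relative to the start, ERSE-II in HERPUD1 from -117 to -107 and CARE in HERPUD1 from -177 to -169 and in CHAC1 from -210 to -202, both on the opposite strand. The same search found no match in DNAJB9, EIF2AK3, COG3, SLC33A1 and ALG2, which IXA6 raised part of the way. It also found none in DDIT3, TRIB3, SESN2, STC2, CTH and ADM2, which lay far below Tg with IXA6. CARE also matched in ATF3 and OSTN, and the UPRE core TGACGTG in KCNK1 and BEX5. A match of letters is a description and not a bound site.

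Motif shares were counted over genes that had an entry in the promoter table, 10719 of the tested genes. Of the 100 raised genes in between that had an entry, 8 (8.0%) held ERSE and 3 (3.0%) ERSE-II, against 0.14% and 0.0933% of the tested genes and 0 and 2 (1.36%) of the 147 raised genes near DMSO. The UPRE core TGACGTG was in 14 of the 100 in between, 6 (4.08%) of those near DMSO and 2.47% of the tested genes. CARE was in 2 (2.0%) of those in between, 15 (10.2%) of those near DMSO and 1.6% of the tested genes. Over all 27305 promoters of the table the shares were 0.0806% for ERSE, 0.0549% for ERSE-II, 2.0% for the UPRE core and 3.67% for CARE.

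Cytosolic heat shock genes fell with Tg and mostly did not fall with IXA6. Of 19 members 12 were lower and 3 higher with Tg than with DMSO, where 17% of all genes were lower, and with IXA6 4 were higher (1.51% of all genes) and 0 lower than with DMSO (edgeR found 0 lower at an unadjusted p under 0.05, and DESeq2 called 0 lower). Without IXA6 replicate 1, without any DMSO library and in the fit of the 9 libraries, 2 were higher than with DMSO. Against Tg, 11 were higher and 2 lower with IXA6 (median 0.25), where 14.2% of all genes were higher. The 2 lower ones, the small heat shock gene HSPB8 (-1.91 ± 0.33 SE, adjusted p = 7.86e-05) and DEDD2 (-0.21 ± 0.07 SE, adjusted p = 0.0278), rose with Tg, and HSPB8, at low counts, was named after its values were seen. The call of DEDD2 was lost without IXA6 replicate 1 or 2, without Tg replicate 1 and with scaling by total counts (adjusted p 0.0781 to 0.141). HSPA1A, the stress-induced HSP70, had 1037, 1197 and 1139.6 CPM with IXA6 and 307, 319 and 251 CPM with Tg, against 856, 811 and 763 CPM with DMSO. IXA6 libraries lay above all DMSO libraries and Tg libraries below them (1.94 ± 0.08 SE, adjusted p = 5.73e-15 against Tg and 0.47 ± 0.08 SE, adjusted p = 0.00123 against DMSO). Its near-identical paralog HSPA1B, with which it can share reads, showed the same order (2.003 ± 0.08 SE, adjusted p = 1.14e-15 against Tg). HSPA8, the constitutive HSP70, had 4394, 4143 and 4223 CPM with IXA6 and 1579, 1337 and 1420.2 CPM with Tg, against 4036, 4273 and 4281 CPM with DMSO. IXA6 and DMSO overlapped and Tg lay far below (1.56 ± 0.06 SE, adjusted p = 5.61e-16 against Tg). DNAJB1, a cytosolic co-chaperone that overlaps TECR, stood at or just above DMSO with IXA6 (1.17 ± 0.05 SE, adjusted p = 1.63e-15 against Tg, 0.08 ± 0.05 SE, adjusted p = 0.387 against DMSO). HSPA1A and HSPA1B remained in the opposite class under every alternative run.

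Other genes lowered by Tg and near DMSO with IXA6 included CD59, which protects cells from complement, with 83.4, 82.0 and 80.5 CPM with IXA6 and 41.9, 37.7 and 38.5 CPM with Tg, against 91.4, 95.9 and 94.7 CPM with DMSO. The others were RGMA, which guides axons (1.08 ± 0.13 SE, adjusted p = 4.76e-07 against Tg), and SNN (1.21 ± 0.10 SE, adjusted p = 7.32e-10), which overlaps TXNDC11. The IXA6 libraries of CD59 stood below all DMSO libraries and far above Tg (-0.20 ± 0.05 SE, adjusted p = 0.0535 against DMSO). That fall passed without Tg replicate 1 or 2, with DESeq2 and with a mean of at least 10 CPM (adjusted p 0.0206 to 0.0476). BCAM, a laminin-binding adhesion gene, had 7.22, 8.85 and 8.20 CPM with IXA6 and 1.91, 2.62 and 2.17 CPM with Tg, against 13.1, 14.2 and 12.7 CPM with DMSO, with 3 groups apart and IXA6 at 27.9% of the Tg change (1.86 ± 0.15 SE, adjusted p = 9.65e-10 against Tg).

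From the side of the genes that IXA6 changed, 303 differed from DMSO, 200 higher (1.51%) and 103 lower (0.778%), in all 2.29% of those tested. Of these, 145 changed further the same way with Tg, 108 were not told apart from Tg, 27 changed further with IXA6 than with Tg and 23 had Tg on the other side of DMSO. These classes used the sign of the Tg estimate and did not require Tg to differ from DMSO. In most of the 27 and of the 23 the Tg change was not called by edgeR. Examples are CETN3 among the 27 (0.0172, adjusted p = 0.890) and B9D1 (0.0209, adjusted p = 0.899) and HMCES (0.0068, adjusted p = 0.948) among the 23. Tg went further for 132 of the 200 raised genes and for 13 of the 103 lowered ones. Of the 108 not told apart, 85 had an interval of the IXA6-to-Tg difference within the 25% margin, and for 86 Tg also differed from DMSO, each in the IXA6 direction. The class counts moved with the libraries, since 18 genes were not told apart without IXA6 replicate 1 and 239 without Tg replicate 1, the range over each of the 9 libraries left out in turn. The total of 303 ranged from 118 without DMSO replicate 2 to 547 without Tg replicate 1, and moved by over 1.5 times without IXA6 replicate 1 or 2, Tg replicate 1 or 2 or any DMSO library.

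Genes that IXA6 raised further than Tg included, among those picked after their values were seen, CETN3, a centrin of the centrosome, and INSIG1, which holds back sterol synthesis. CETN3 had 44.2, 46.2 and 39.4 CPM with IXA6 and 33.8, 27.3 and 29.8 CPM with Tg, against 31.2, 29.5 and 29.2 CPM with DMSO, so IXA6 stood above Tg and DMSO, which overlapped (0.51 ± 0.08 SE, adjusted p = 1.13e-05 against Tg). INSIG1 had 348, 316 and 311 CPM with IXA6 and 291, 261 and 285 CPM with Tg, against 258, 264 and 266 CPM with DMSO (0.22 ± 0.05 SE, adjusted p = 0.0015 against Tg). Its Tg and DMSO libraries overlapped and were not told apart (0.09 ± 0.05 SE, adjusted p = 0.191), except without Tg replicate 2 (adjusted p = 0.0466). Genes lowered by IXA6 and raised at least 1.5-fold by Tg, besides SLC7A5, were the matrix gene EMILIN2 and SREBF1, the sterol regulatory transcription factor gene, which overlaps RAI1. SREBF1 had 28.3, 33.3 and 33.1 CPM with IXA6 and 63.3, 60.6 and 55.6 CPM with Tg, against 43.0, 36.8 and 38.9 CPM with DMSO (-0.92 ± 0.08 SE, adjusted p = 1.11e-09 against Tg). Its fall against DMSO (-0.32 ± 0.08 SE, adjusted p = 0.0249) was lost without IXA6 replicate 1, DMSO replicate 1 or DMSO replicate 3 and in the fit of the 9 libraries (adjusted p 0.0578 to 0.176). That of EMILIN2 (-0.35 ± 0.09 SE, adjusted p = 0.0374) was lost without IXA6 replicate 1 or 2 or DMSO replicate 1 or 2 and in the fit of the 9 libraries (adjusted p 0.0616 to 0.191).

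In the remaining lists the median difference from Tg was smaller or the members lay on both sides of it. Over all genes 16.8% were lower and 14.2% higher with IXA6 than with Tg, and 1.51% were higher than with DMSO. In sterol synthesis 8 of 21 members were lower and 3 higher with IXA6 than with Tg (median 0.04), and 4 were higher with IXA6 than with DMSO. With scaling by total counts 6 were lower and 8 higher than with Tg. HMGCS1, which makes HMG-CoA, had 376, 338 and 342 CPM with IXA6 and 459, 400.1 and 426 CPM with Tg, against 258, 273 and 285 CPM with DMSO, with IXA6 between the other groups at 56.8% of the Tg change. IDI1, which overlaps WDR37, stood at 52.5%. Of 11 immediate early genes 8 were lower with IXA6 than with Tg, or 5 with a filter at 10 CPM that tests fewer of them. FOS, a subunit of AP-1, had 1.46, 1.08 and 1.46 CPM with IXA6 and 6.48, 7.57 and 6.65 CPM with Tg, against 0.768, 1.10 and 1.58 CPM with DMSO. In the mitosis list 15 of 20 were higher than with Tg (median 0.23), led by the proliferation marker gene MKI67 (0.65 ± 0.06 SE, adjusted p = 1.08e-08). Tg lowered 14 of the 20 against DMSO, where 17% of all genes were lower, and raised 0, also at an unadjusted p under 0.05. With IXA6 against DMSO edgeR called 0 of the 20, with 4 higher and 4 lower at an unadjusted p under 0.05, and DESeq2 called 2 higher. Without Tg replicate 1 edgeR called 2, and without Tg replicate 2 or DMSO replicate 1 it called 1. Of 6 reported substrates of IRE1-dependent decay 3 were higher with IXA6 than with Tg, SCARA3 (0.60), PMP22 (0.42) and BLOC1S1 (0.37). Tg lowered 4 of the 6 against DMSO, where 17% of all genes were lower. With IXA6 against DMSO edgeR called 0 of the 6, also at an unadjusted p under 0.05, and DESeq2 called 0. The Tg fall of PMP22 was lost in 7 alternative settings (adjusted p 0.0510 to 0.144). SCARA3 overlaps CCDC25 and BLOC1S1 overlaps ITGA7. Of 17 oxidative stress genes of the NRF2 pathway 1 was higher and 3 were lower, and of 32 complex I subunits 6 were higher and 2 lower than with Tg. These shares are near or below those over all genes and are no result about these lists, and with scaling by total counts 4 NRF2 genes were higher and 2 lower. TXNIP, which binds thioredoxin, was lower with IXA6 than with Tg (-0.66 ± 0.09 SE, adjusted p = 1.81e-06).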

How the data were processed

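Gene expression was measured by RNA sequencing of HEK293T cells. The authors deposited a table of read counts per gene for 15 count columns, and 1 column that matches no sample title was not used. The submitters' processing notes name the build GRCh37.p13 and the tool DESeq. The sources used here do not name an aligner, a counter or a strand setting. The 22 rows whose gene name had turned into a date held 0.249% to 0.282% of counts per library and are not named.

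Counts of 14 libraries (3 each of IXA6, Tg, DMSO and IXA4, and 2 of IXA1) were fitted together with edgeR 4.0.16 in R 4.3.3 (TMM normalization, filterByExpr, which removed 0 genes, and the quasi-likelihood test), with Benjamini-Hochberg adjustment over all 13243 genes within each comparison and a threshold of 0.05. Standard errors were taken as the absolute log2 fold change over the square root of F, and 95% intervals from the t distribution with the fit's degrees of freedom. Total counts were 14160321 to 15509818 per library, so genes of a few CPM are the least precise. Alternatives were DESeq2 1.42.0, other scalings, a filter at 10 CPM, a fit of the 9 libraries alone, other margins, a replicate block and each library left out in turn. The code was tested on simulated data.

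The genes and lists were chosen with earlier results of these data known. Named genes, averaging at least 2 CPM over the 9 libraries and with a gene symbol, were the 8 largest falls and rises of IXA6 against Tg with libraries apart, the 8 raised and 5 lowered genes with the highest percent of the Tg change among those called with both compounds, all genes near, beyond or opposite to Tg, the largest Tg changes near DMSO (6 rises, 4 falls), the largest and smallest called members of each list, and a fixed panel. Genes added after their values were seen are CREB3L2, SLC1A4, ALDH1L2, ATF5, DNAJB1, HMGCS1, SRP19, SEC61B, SEC61G, SYVN1, CETN3, INSIG1, HSPB8 and SCHIP1. HYOU1, SDF2L1, SEL1L, SSR3 and the other list members follow the list rule. Promoter sequences are from RefSeq (GRCh38.p14), matched by symbol.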

Additional observations from a re-analysis of the deposited data

How the results depend on the processing

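Other scalings (RLE size factors or total counts) kept each total count of genes within 1.5 times. With total counts the balance turned round, to 2988 higher and 1499 lower for IXA6 against Tg and to 1749 higher and 3390 lower for Tg against DMSO, and 144 lowered genes were near DMSO. Requiring a fold beyond 1.2 (glmTreat) left 1031 genes for IXA6 against Tg, 25 for IXA6 against DMSO and 1396 for Tg against DMSO. In the fit of the 9 libraries alone, 166 genes differed between IXA6 and DMSO, 43 were not told apart from Tg, 15 went further with IXA6, 7 had Tg on the other side of DMSO and 3 were opposite. Correlations of deviations ran from -0.24 to 0.50 for same-numbered replicates and from -0.59 to 0.53 for different-numbered ones. With 3 replicates per group this cannot settle whether replicate numbers pair the samples. With a replicate block 3971, 265 and 4621 genes were called in the 3 comparisons and 3 genes were opposite. With the block, the calls against DMSO of SLC7A5 (adjusted p = 0.0545), EMILIN2 (adjusted p = 0.0547) and TMEM200B (log2 change -1.82, adjusted p = 0.0793) were lost. A 90% interval put 1 gene near Tg. With a 1.5-fold margin and Tg changes of at least 2-fold, 61 genes were between, 100 near DMSO, 3 opposite and 122 unresolved. A 1.2-fold margin left 180 near DMSO, and a mean of at least 10 CPM left 168 unresolved. With DESeq2, 186 genes were not told apart from Tg and 50 had Tg on the other side of DMSO. The log2 change of TMEM200B with IXA6 against DMSO reversed to 0.0235 without DMSO replicate 1, and leaving out each library in turn it ran from -2.69 to 0.0235. Some settings use fewer genes or samples, and the cause of these changes was not tested.

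Leaving out each library in turn gave 3243 to 4080 genes for IXA6 against Tg, 118 to 547 for IXA6 against DMSO and 3843 to 5009 for Tg against DMSO. For IXA6 against DMSO the count was 122 and 130 without IXA6 replicates 1 and 2, 547 and 481 without Tg replicates 1 and 2, and 164, 118 and 147 without DMSO replicates 1, 2 and 3. Of the Tg-changed genes 0 to 1 were near Tg, 0 to 0 beyond it, 78 to 146 between, 225 to 310 near DMSO, 2 to 6 opposite and 434 to 620 unresolved. Of the IXA6-changed genes 18 to 239 were not told apart from Tg, 79 to 207 changed further with Tg, 6 to 41 further with IXA6 and 5 to 84 had Tg on the other side of DMSO.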
